A study of Rattus norvegicus with 48 samples.

Results

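The livers of 3 EtOH-fed rats collected 72 h after surgery were compared with the livers of 3 EtOH-fed rats taken before it (0 h). These 6 animals were chosen by their labels, untreated animals on the ethanol diet at 72 h and at 0 h, out of 48 animals in the series. All 6 were male Sprague-Dawley rats on a liquid diet in which 36% of calories came from ethanol. By the study's methods, rats were 8 to 14 weeks old when feeding began and the diet ran for 6 to 8 weeks. The labels give no age for a single animal. The surgery was a 70% partial hepatectomy (PHx), and the 72 h livers are what regrew after it. The 0 h animals are recorded with 70% PHx as well, and the sources used here do not say how their liver was obtained. Both groups were labelled untreated, which sets them apart from animals of the series injected with saline or with an oligo antisense to miR-21. For comparison, the values of EtOH-fed animals at 6 and 24 h (3 each), of 3 EtOH-fed animals given saline and taken at 0 h, and of pair-fed animals on the carbohydrate control diet (CHO) at 0 and 72 h (3 each) are given where they bear on a result. RNA of whole liver was measured with the NanoString nCounter assay, which counts each miRNA with its own probe, and 143 miRNAs were in the deposited table. In such bulk samples, fewer cells of a type and less RNA per cell cannot be told apart.

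The labels number the animals in sets. The 0 h animals carry the set numbers 1, 2 and 3, and the 72 h animals (4_10, 4_11 and 4_12) all carry set number 4, so that time and set cannot be told apart between these groups. The EtOH-fed animals at 6 h (4_4, 4_5 and 4_6) carry set number 4 as well, and the change from 6 to 72 h is therefore free of the set difference. The sources used here do not say what a set is, nor whether the 3 animals of a group were handled apart from each other, and p-values measure the spread between these animals. Of the libraries labelled saline at 0 h, 2 went against their label. miR-21, the target of the inhibitor, stood at 11.12, 9.65 and 14.10 log2 CPM (CPM are counts scaled to one library total) in the animals labelled saline, against 14.16 to 15.00 in the untreated 0 h animals and 6.65 to 7.76 in EtOH-fed animals given the inhibitor at 0 h. Saline animals 1 and 2 thus lay between these groups, and values that use the libraries labelled saline are given with all 3 of them and with saline animal 3 alone.

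A miRNA is a short RNA that guides the silencing machinery to messenger RNAs and lowers their stability and translation. Pairing runs mainly through the seed, bases 2 to 8 from the 5′ end, so miRNAs that share a seed can act on many of the same messages. After PHx the remaining hepatocytes leave rest and divide, followed by the cells lining the sinusoids and bile ducts, until the mass of the liver is restored. Several miRNA families bear on this process. The miR-15/16 family and miR-34a restrain the cell cycle, the miR-17/92 and miR-106b clusters favour it, the miR-29 family holds down collagens, and miR-143 and miR-145 are abundant in smooth muscle and other mesenchymal cells. Chronic ethanol intake slows the regrowth of rat liver.

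The mature sequences of the families on which the results turn are given first, from RefSeq (assembly GRCr8), with the seed in capitals. Of the 26 miRNAs that differed between 72 and 0 h by the criterion given below, 23 matched an entry. Names in the deposited table without an arm were taken as the arm listed here. The first seed, AGCAGCA, was shared by 5 measured miRNAs, of which miR-15b and miR-16 were higher at 72 h and miR-195, miR-497 and miR-322 were not called.
miR-15b-5p: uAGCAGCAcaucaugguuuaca
miR-16-5p: uAGCAGCAcguaaauauuggcg
miR-195-5p: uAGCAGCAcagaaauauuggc
miR-497-5p: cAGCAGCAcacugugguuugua
miR-322-5p: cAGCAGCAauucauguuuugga

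Among the miRNAs matched to a sequence, the seed AAAGUGC belonged to 3 from separate hairpins, and all 3 were higher at 72 h. The probe that miR-20a and miR-20b-5p share matched no entry and was not called (log2 fold change 0.08, limma adjusted p = 0.838). Further measured miRNAs may therefore hold this seed. From the 5′ end, miR-17-5p and miR-93 differed at 4 of 23 positions and miR-17-5p and miR-106b at 3 of 21.
miR-17-5p: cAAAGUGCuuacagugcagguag
miR-93-5p: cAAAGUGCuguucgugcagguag
miR-106b-5p: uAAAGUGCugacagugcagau

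The miR-23 pair (seed UCACAUU) and the miR-27 pair (seed UCACAGU) each differ at 1 of 21 positions, outside the seed. Both miR-23 miRNAs and miR-27b were lower at 72 h. Whether the probes tell such close sequences apart was not tested here.
miR-23a-3p: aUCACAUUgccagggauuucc
miR-23b-3p: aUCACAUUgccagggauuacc
miR-27a-3p: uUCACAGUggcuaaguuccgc
miR-27b-3p: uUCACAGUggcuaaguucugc

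In the miR-29, miR-30, miR-34 and miR-181 families, 1 measured member each differed while the others with the same seed were not called. The difference between the members was not tested here. The called members are miR-29a, miR-30c, miR-34a and miR-181a.
miR-29a-3p: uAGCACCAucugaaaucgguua
miR-29b-3p: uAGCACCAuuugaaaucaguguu
miR-29c-3p: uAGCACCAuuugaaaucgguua
miR-30c-5p: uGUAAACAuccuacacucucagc
miR-30a-5p: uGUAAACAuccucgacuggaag
miR-30e-5p: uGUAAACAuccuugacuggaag
miR-34a-5p: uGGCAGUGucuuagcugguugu
miR-34c-5p: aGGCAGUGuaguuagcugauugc
miR-181a-5p: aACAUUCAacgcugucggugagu
miR-181c-5p: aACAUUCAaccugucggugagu

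Called miRNAs whose seed no other miRNA named here shared included miR-132, which was higher, and miR-22 and miR-139-5p, which were lower. The 23 matched miRNAs held 19 distinct seeds.
miR-132-3p: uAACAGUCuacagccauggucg
miR-22-3p: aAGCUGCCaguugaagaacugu
miR-139-5p: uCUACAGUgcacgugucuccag

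At 72 h, 15 miRNAs were higher and 11 lower than at 0 h (26 of 143, or 18.2%; 10.5% higher and 7.69% lower). The higher ones included both called members of the miR-15/16 family, miR-34a, and the 3 matched miRNAs with the seed AAAGUGC. The lower ones included miR-23a, miR-23b and miR-27b, miR-22, miR-29a, miR-145, miR-181a and the red blood cell miRNA miR-451. A miRNA was called where the Benjamini-Hochberg adjusted p of limma, over all 143 miRNAs, was under 0.05. The fit used the deposited log2 CPM with a mean for each of the 8 untreated groups and a spread shared by their 24 animals. At an unadjusted p under 0.05, 48 miRNAs (33.6%) stood out. Fold changes are on the log2 scale, where 1 is a doubling, and standard errors of the 26 ran from 0.148 to 0.302.

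In each of the 26, the 3 animals at 72 h lay all above or all below the 3 at 0 h. Over all 143 miRNAs, 38.5% had such groups (22.4% above and 16.1% below). With the 3 libraries labelled saline added to the 0 h range, which were not used in the fit, 24 of the 26 still did not overlap, against 27.3% of all miRNAs. With saline animal 3 alone added, 25 did not overlap, against 32.2%. The exceptions were miR-185 in both cases and miR-451 with all 3. All of these counts use the 72 h animals by which the 26 were chosen, so they are not independent support. The median log2 fold change was 0.76 among the higher, -0.89 among the lower and 0.03 over all 143 miRNAs. A difference of more than 2-fold was seen for 4 miRNAs, namely miR-16, miR-34a, miR-15b and miR-132, all of them higher at 72 h.

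**Figure D1:**
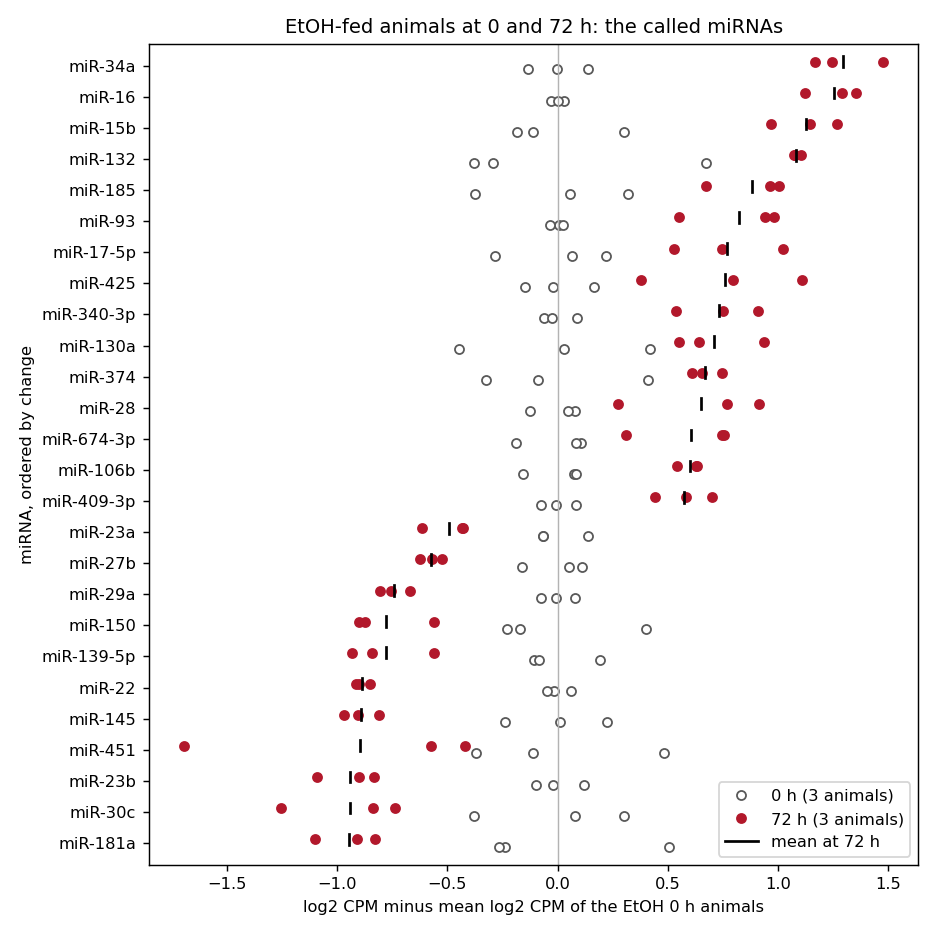
Log2 CPM of each animal minus the mean of the EtOH 0 h animals, for the 26 called miRNAs. Open circles are the 3 animals at 0 h, red circles the 3 at 72 h and black ticks the 72 h mean, and in no row do the red and open circles overlap.

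How many calls went up rather than down depended on the scaling between animals. The authors' TMM scaling, which sets animals to a common level over most miRNAs, gave 15 of 26 higher (57.7%). Size factors from the median of ratios gave 11 of 25 (44.0%) and plain total counts gave 7 of 21 (33.3%). Total counts lowered the median fold change of all 143 miRNAs by 0.16, which is a shift common to every miRNA, and miR-122, the main miRNA of hepatocytes, alone held 57.39% to 63.33% of the counts at 72 h and 54.23% to 61.94% at 0 h. No called miRNA changed direction under any of the 21 alternatives run for it. With saline animal 3 as the only control, 5 miRNAs were called, among them miR-34a and miR-181a. Under each of the other 20 alternatives, 11 of the 26 kept the call, namely miR-15b, miR-16, miR-34a, miR-93, miR-22, miR-23b, miR-27b, miR-29a, miR-145, miR-139-5p and miR-181a.

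Total counts were 92245 to 205241 in the 0 h animals and 163533 to 267582 in the 72 h animals. Among the 15 higher miRNAs, 10 had fewer than 50 counts in at least 1 of the 6 animals, and the lowest was miR-185 with 13 in the 0 h animal 2, which had the smallest total. None of the 11 lower miRNAs had an animal under 50 counts. The low counts therefore lie on the rising side, and counting error adds to the spread there.

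Of the higher miRNAs, miR-16 was the most abundant. At 0 h, the log2 CPM of miR-16 was 14.41, 14.36 and 14.39, and at 72 h it was 15.74, 15.68 and 15.51. All 72 h animals lay more than 1 unit above every 0 h animal, a 2.39-fold higher mean level (log2 fold change 1.26, standard error 0.23, limma adjusted p = 0.000823). miR-15b, which is encoded beside it and targets many of the same cell cycle messages, had a log2 CPM of 12.41, 12.82 and 12.34 at 0 h and 13.67, 13.79 and 13.49 at 72 h. The lowest 72 h animal stood above the highest 0 h animal, and the mean was 2.19-fold higher (log2 fold change 1.13, standard error 0.21, limma adjusted p = 0.000823). The other 3 members with this seed had small differences. Their log2 fold changes were 0.13 for miR-195, 0.10 for miR-322 and -0.06 for miR-497, each with overlapping animals (adjusted p = 0.793, 0.823 and 0.924). The median over the 5 was 0.13, and -0.03 with total counts.

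miR-34a, a direct target of the tumour suppressor p53 that lowers cyclins and cyclin-dependent kinases, showed the largest rise of the comparison. Its log2 CPM was 7.67, 7.94 and 7.80 at 0 h and 9.28, 9.05 and 8.97 at 72 h. The groups were separated by about 1 unit, and the mean was 2.46-fold higher (log2 fold change 1.30, standard error 0.22, limma adjusted p = 0.000823). Its level was low, with 30, 21 and 45 counts at 0 h against 134, 118 and 80 at 72 h. The animals labelled saline at 0 h, at 7.91, 6.95 and 7.40 log2 CPM, lay below or within the untreated 0 h values, and against saline animal 3 alone the change was 1.69 (adjusted p = 0.00234). miR-34c, with the same seed from another hairpin, had a log2 fold change of -0.21 (adjusted p = 0.597) and overlapping animals.

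The 3 matched miRNAs with the seed AAAGUGC are encoded in the miR-17/92 cluster and its relative, the miR-106b cluster. Both clusters are switched on in dividing cells. The sequences of miR-17-5p and miR-19b are also encoded together on chromosome X, so their levels cannot be assigned to a single locus. At 0 h, the log2 CPM of miR-17-5p was 10.75, 10.40 and 10.90, and at 72 h it was 11.71, 11.43 and 11.21. Every 72 h animal was above every 0 h animal (log2 fold change 0.77, standard error 0.18, limma adjusted p = 0.00633). For miR-93 the values were 8.89, 8.85 and 8.91 at 0 h and 9.83, 9.87 and 9.44 at 72 h. The 0 h animals lay within 0.1 of each other, and the lowest 72 h animal was 4_12 (log2 fold change 0.82, standard error 0.20, limma adjusted p = 0.00718). miR-106b stood at 8.21, 8.44 and 8.45 at 0 h and 9.0, 9.0 and 8.91 at 72 h (log2 fold change 0.60, standard error 0.21, limma adjusted p = 0.0456). Its call was lost when any 1 of the 6 animals was left out, with log2 fold changes of 0.52 to 0.64 and adjusted p of 0.0567 to 0.157. With total counts in place of TMM, miR-17-5p missed the threshold as well (0.61, adjusted p = 0.0579).

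Across both clusters, 7 probes were measured, of which 3 were called higher and 0 lower, beside 10.5% higher and 7.69% lower over all miRNAs. One of the 3 is miR-106b, whose call each single omission removed. The other 4 had log2 fold changes of 0.79 for miR-19a, 0.59 for miR-19b, 0.36 for miR-25 and 0.08 for the probe that miR-20a and miR-20b-5p share, none called (adjusted p = 0.263, 0.181, 0.0857 and 0.838). The median of the 7 was 0.60, against 0.03 over all miRNAs, and stayed above 0 with each scaling, at 0.44 with total counts.

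Further rises came from miRNAs of separate hairpins. miR-132, which is induced by growth and inflammatory signals in many cells, was at 7.16, 8.13 and 7.07 at 0 h and 8.56, 8.53 and 8.53 at 72 h. The 72 h animals lay within 0.1 of each other, while the 0 h animal 2 was about 1 unit above the other two (log2 fold change 1.08, standard error 0.28, limma adjusted p = 0.00788). Counts were 21, 24 and 27 at 0 h and 81, 82 and 59 at 72 h. Without the 0 h animal 3 the change was 0.89 (adjusted p = 0.0519).

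miR-185 rose from 7.96, 7.27 and 7.70 to 8.61, 8.32 and 8.65 log2 CPM (log2 fold change 0.88, standard error 0.23, limma adjusted p = 0.00873). The call was lost without the 0 h animal 2, the lowest of its group (0.69, adjusted p = 0.0532). Against the animals labelled saline, at 7.78, 7.97 and 8.48, the change was 0.45 (adjusted p = 0.179), and 0.05 against saline animal 3 alone (adjusted p = 0.98). miR-425 stood at 8.77, 8.95 and 8.64 at 0 h and 9.90, 9.58 and 9.17 at 72 h, with animal 4_10 highest (log2 fold change 0.76, standard error 0.21, limma adjusted p = 0.00937). Its change was 0.59 with an adjusted p of 0.0904 without the 72 h animal 4_10 and 0.69 with an adjusted p of 0.0523 without the 0 h animal 3.

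miR-374, which the table gives without an arm, was higher in all 72 h animals, at 9.36, 9.27 and 9.23, than at 0 h, at 9.03, 8.29 and 8.53 (log2 fold change 0.67, standard error 0.17, limma adjusted p = 0.00814). The 0 h animal 1 was closest to the 72 h values, and the change was 0.51 with an adjusted p of 0.0532 without the 0 h animal 2. miR-28, encoded in an intron of the Lpp gene, was at 10.13, 9.93 and 10.10 at 0 h and 10.97, 10.82 and 10.33 at 72 h. The 72 h animal 4_12 was only slightly above the 0 h group (log2 fold change 0.65, standard error 0.18, limma adjusted p = 0.00971). Without animal 4_10 the change was 0.52 (adjusted p = 0.0904) and without 4_11 0.59 (adjusted p = 0.0539).

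miR-340 was measured from both arms of 1 hairpin. The 3p arm rose from 7.41, 7.56 and 7.44 to 8.22, 8.0 and 8.38 (log2 fold change 0.73, standard error 0.20, limma adjusted p = 0.00937), and the change was 0.64 with an adjusted p of 0.056 without the 72 h animal 4_12. Animal 4_12 was the highest of its group. The 5p arm had a log2 fold change of 0.13 (adjusted p = 0.83) with overlapping animals. The difference between the arms within an animal, 3p minus 5p, was -1.95, -0.79 and -2.04 at 0 h and -1.01, -0.98 and -0.98 at 72 h. The 0 h animals spread widely and overlapped the 72 h animals, so the arms were not shown to change unequally.

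The calls of miR-130a, miR-674-3p and miR-409-3p were lost under 11, 13 and 14 of the 21 alternatives. miR-130a, a miRNA with many targets in growth factor and lipid pathways, was at 10.37, 9.90 and 10.76 at 0 h and 11.28, 10.99 and 10.90 at 72 h (log2 fold change 0.71, standard error 0.25, limma adjusted p = 0.0483). Its call was lost without the 0 h animal 1 or 2 or without any single 72 h animal, and leaving out single animals gave changes of 0.49 to 0.92 (adjusted p of 0.0252 to 0.207). miR-674-3p was at 8.72, 8.70 and 8.43 at 0 h and 9.37, 9.36 and 8.93 at 72 h (log2 fold change 0.60, standard error 0.20, limma adjusted p = 0.0364). Its call was lost on every single omission but that of animal 4_12, the lowest of the 72 h group (0.51 to 0.75, adjusted p of 0.0186 to 0.146). The 5p arm, miR-674-5p, had a log2 fold change of 0.52 (adjusted p = 0.0728) and 72 h animals all above 0 h. miR-409-3p, from the imprinted Dlk1-Dio3 region, was at 8.30, 8.39 and 8.23 at 0 h and 8.75, 9.01 and 8.89 at 72 h (log2 fold change 0.58, standard error 0.20, limma adjusted p = 0.0456), and no single omission kept its call (0.51 to 0.64, adjusted p of 0.0532 to 0.128).

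Among the lower miRNAs, 3 of the 5 measured members of the miR-23/27/24 clusters were called lower and 0 of the 5 higher, beside 7.69% lower and 10.5% higher over all miRNAs. These clusters act in endothelial cells and in the control of growth factor signals. For miR-23b, the log2 CPM was 12.78, 12.70 and 12.92 at 0 h and 11.71, 11.90 and 11.97 at 72 h. The groups did not overlap, and the mean fell to 0.521 of the 0 h level (log2 fold change -0.94, standard error 0.19, limma adjusted p = 0.00117). Its neighbour miR-27b was at 14.17, 13.89 and 14.11 at 0 h and 13.53, 13.49 and 13.43 at 72 h, again with no overlap (log2 fold change -0.57, standard error 0.15, limma adjusted p = 0.00814). miR-23a, from the other cluster, was at 13.45, 13.45 and 13.66 at 0 h and 13.09, 13.08 and 12.90 at 72 h (log2 fold change -0.49, standard error 0.17, limma adjusted p = 0.0456). This smaller fall lost its call when any 1 of the 6 animals was left out (-0.53 to -0.42, adjusted p of 0.0561 to 0.148). miR-27a had a log2 fold change of -0.36 (adjusted p = 0.116) with all 72 h animals below 0 h, and miR-24, which both clusters encode, had 0.24 (adjusted p = 0.239) with all 72 h animals above. The median over the 5 was -0.49.

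miR-22, a broadly expressed miRNA that acts in lipid and energy metabolism, had narrow groups. Its log2 CPM was 14.29, 14.25 and 14.36 at 0 h and 13.40, 13.45 and 13.38 at 72 h. Within each group the animals lay within 0.12 of each other, and the mean at 72 h was 0.54 of that at 0 h (log2 fold change -0.89, standard error 0.17, limma adjusted p = 0.000823). The animals labelled saline at 0 h, at 13.97, 14.15 and 13.88, were lower than the untreated ones. Against them the change was -0.59 (adjusted p = 0.0198), and -0.47 against saline animal 3 alone (adjusted p = 0.307).

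miR-29a represses several collagen messages. At 0 h, the log2 CPM of miR-29a was 15.08, 15.00 and 14.93, and at 72 h it was 14.20, 14.34 and 14.25. All 72 h animals were more than 0.5 below all 0 h animals (log2 fold change -0.74, standard error 0.15, limma adjusted p = 0.00185). The animals labelled saline, at 14.96, 15.15 and 15.00, were all above the 72 h animals, and against saline animal 3 alone the change was -0.74 (adjusted p = 0.0821). Its relatives with the same seed did not pass the test, with log2 fold changes of -0.01 for miR-29b and -0.17 for miR-29c (adjusted p = 0.978 and 0.774). Of these, miR-29c differs from miR-29a at 1 of 22 positions.

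In the miR-30 family, whose members are abundant in differentiated epithelia, 1 of 5 measured members was called lower, beside 7.69% over all miRNAs. miR-30c was at 10.15, 9.69 and 10.37 at 0 h and 9.33, 9.23 and 8.82 at 72 h, with animal 4_12 lowest (log2 fold change -0.94, standard error 0.25, limma adjusted p = 0.00937). Without that animal the change was -0.79 (adjusted p = 0.0618), and without the 0 h animal 3, the highest, -0.79 (adjusted p = 0.0622). The 4 others, miR-30a, miR-30b-5p, miR-30d and miR-30e, ran from -0.13 to -0.02. The median of the 5 was -0.09, against 0.03 over all miRNAs.

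miR-181a, which tunes signalling in lymphocytes and is also expressed in liver, fell by about as much as miR-30c and miR-23b. Its log2 CPM was 11.69, 12.44 and 11.66 at 0 h and 10.83, 11.02 and 11.10 at 72 h. The 0 h animal 2 was the highest, and the 72 h animals were all below the lowest 0 h animal (log2 fold change -0.95, standard error 0.20, limma adjusted p = 0.00207). miR-181c with the same seed had a log2 fold change of -0.03 (adjusted p = 0.962). miR-139-5p, encoded in an intron of Pde2a and known for restraining growth and migration of liver tumour cells, was at 9.33, 9.63 and 9.35 at 0 h and 8.50, 8.59 and 8.87 at 72 h. These groups did not overlap either (log2 fold change -0.78, standard error 0.19, limma adjusted p = 0.00739).

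miR-145, a marker of smooth muscle and other mesenchymal cells, was lower in every 72 h animal. At 0 h, the log2 CPM of miR-145 was 13.79, 14.01 and 13.54, and at 72 h it was 12.81, 12.97 and 12.88. The mean fell to 0.538 of the 0 h level (log2 fold change -0.89, standard error 0.20, limma adjusted p = 0.00275). miR-143, which is made from the same cluster and marks the same cells, had a log2 fold change of -0.25 (adjusted p = 0.479) with overlapping animals.

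The remaining lower miRNAs mark blood cells. miR-451, which is made in maturing red blood cells, was at 9.61, 9.36 and 10.21 at 0 h and 8.03, 9.30 and 9.15 at 72 h (log2 fold change -0.90, standard error 0.30, limma adjusted p = 0.0453). Animal 4_10 was about 1 unit below the other 72 h animals, and the change was -0.50 with an adjusted p of 0.277 without the 72 h animal 4_10. It was -0.95 with an adjusted p of 0.0733 without the 0 h animal 1 and -0.66 with an adjusted p of 0.175 without the 0 h animal 3. The animals labelled saline at 0 h were at 9.01, 10.15 and 10.98, of which saline animal 3 lay above all 72 h animals (change -2.16 against it alone, adjusted p = 0.00234). miR-144, the other red blood cell marker measured, had a log2 fold change of -0.86 (adjusted p = 0.122) with overlapping animals. The summed level of both (log2 of summed CPM) was 10.90 to 11.89 at 0 h and 9.47 to 10.89 at 72 h, which adjoin without overlap. In the animals labelled saline it was 10.49 to 12.36, which overlaps the 72 h animals.

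miR-150, an abundant miRNA of mature lymphocytes, was at 10.17, 10.80 and 10.23 at 0 h and 9.53, 9.84 and 9.50 at 72 h (log2 fold change -0.78, standard error 0.23, limma adjusted p = 0.0174). The 0 h animal 2 was the highest, and the change was -0.58 with an adjusted p of 0.0971 without the 0 h animal 2. It was -0.73 with an adjusted p of 0.0799 without the 72 h animal 4_10 and -0.72 with an adjusted p of 0.0653 without the 72 h animal 4_12. The other leukocyte markers measured were not called, with log2 fold changes of 0.18 for miR-142-3p, 0.57 for miR-223 and -0.28 for miR-342-3p (adjusted p = 0.694, 0.145 and 0.371). The summed level of the 4 was 11.66 to 12.03 at 0 h and 11.61 to 11.74 at 72 h, with overlap. The part of blood in these differences, or in that of miR-16, which is also present in erythrocytes, was not tested.

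Where several called or measured miRNAs are encoded within 10000 bases of each other on 1 strand, they may come from 1 transcript, and their ratio within an animal does not depend on the scaling. miR-15b and miR-16 lie together at chr2:155555197-155555421 (plus strand, GRCr8). The difference miR-15b minus miR-16, in log2 CPM, was -2.00, -1.53 and -2.05 at 0 h and -2.07, -1.88 and -2.02 at 72 h. These values overlapped, so in EtOH-fed animals both rose by amounts whose difference lay within the spread of the animals. The change of this difference was -0.13 in EtOH-fed and -0.57 in CHO-fed animals. For miR-451 and miR-144, at chr10:63459397-63459640 (plus strand), the difference changed by -0.04, again with overlap. Differences in log2 CPM compare each probe with itself over time and give no ratio of molecules.

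Among other neighbours, some ratios differed between the times. Only pairs with a called member were compared, and this choice favours unequal changes. The differences were not tested, and no share over unselected pairs is given. miR-23b and miR-24 share the cluster at chr17:1818669-1819482 (minus strand), and miR-23b minus miR-24 was 2.12, 2.08 and 2.35 at 0 h and 0.85, 1.14 and 1.02 at 72 h. All 72 h animals were below all 0 h animals, with a change of -1.18 in EtOH-fed and -1.02 in CHO-fed animals. In the same cluster miR-27b minus miR-24 changed by -0.81 without overlap, and by -0.70 in CHO-fed animals. The 2 lower neighbours also changed unequally, with miR-27b minus miR-23b at 0.368 without overlap, and at 0.325 in CHO-fed animals. At the second cluster, chr19:40859455-40859843 (minus strand), miR-23a minus miR-24 changed by -0.73 without overlap, and miR-23a minus miR-27a by -0.13 with overlap. In CHO-fed animals these changes were -0.295 and 0.463. Because miR-24 is encoded in both clusters, its level is a sum over both.

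Within the miR-106b cluster, at chr12:22156641-22157123 (minus strand), miR-93 minus miR-25 was -3.53, -3.69 and -3.47 at 0 h and -3.09, -2.99 and -3.20 at 72 h. It was higher in every 72 h animal, with a change of 0.467 in EtOH-fed and 0.446 in CHO-fed animals. miR-106b minus miR-25 changed by 0.243 without overlap, and by 0.2 in CHO-fed animals. miR-30c minus miR-30e, at chr5:139634455-139637541 (minus strand), was 2.07, 2.32 and 2.42 at 0 h and 1.5, 1.92 and 0.84 at 72 h. It was lower in every 72 h animal, with a change of -0.853 in EtOH-fed and -0.285 in CHO-fed animals. miR-30c has another hairpin on chromosome 9. The animals overlapped for miR-29a minus miR-29b (change -0.74) and for miR-145 minus miR-143 (change -0.65). A ratio shows an unequal change of the 2 probes and does not show which of them changed.

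**Figure D2:**
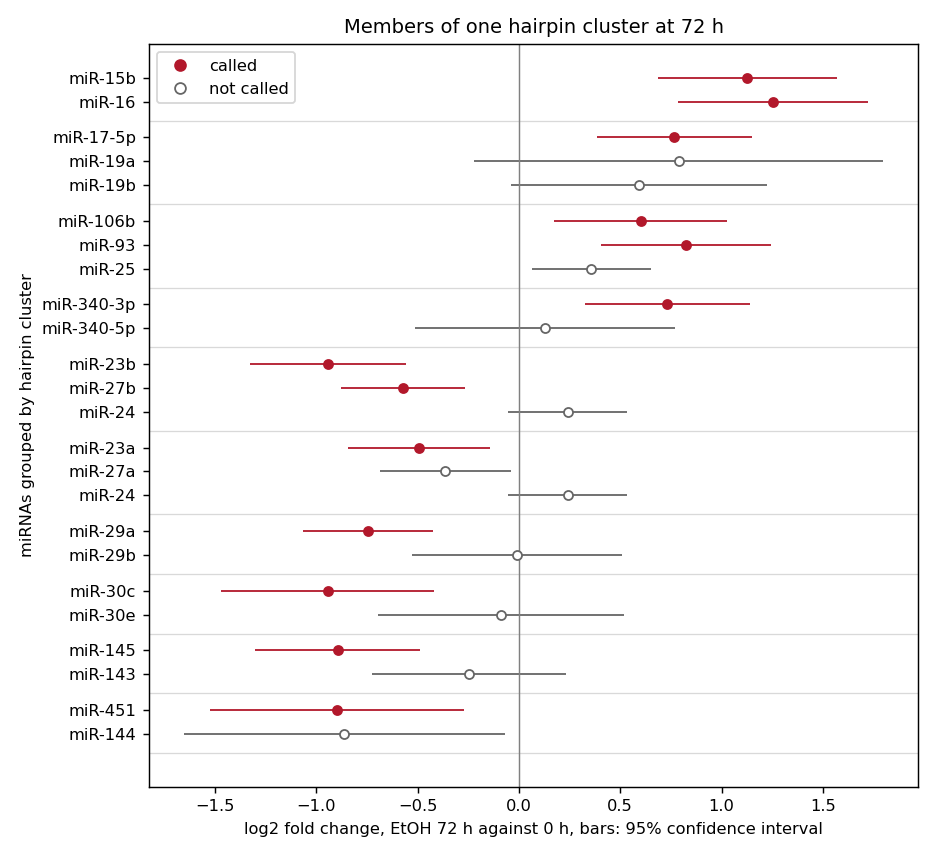
Log2 fold change of EtOH-fed animals at 72 h against 0 h (n = 3 and 3) for miRNAs encoded together, with 95% confidence intervals from limma. Filled red points are called and open grey points are not. miR-15b and miR-16 lie side by side at 1.13 and 1.26, while miR-24 lies at 0.24 beside its lower neighbours miR-23b at -0.94 and miR-27b at -0.57.

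The remaining miRNA groups, taken from lists of families and cell markers, are given by their counts, beside 18.2% called over all miRNAs. Of 8 let-7 miRNAs, which favour the differentiated state, 0 were called, and their median of 0.02 became negative with each other scaling (-0.14 with total counts). The miR-99/100 and miR-125 families, which act on mTOR and growth signalling, had 0 of 5 called and a median of -0.35, with all 72 h animals below 0 h for miR-99a (-0.49, adjusted p = 0.0616), miR-100 (-0.46, adjusted p = 0.152) and miR-125a-5p (-0.35, adjusted p = 0.263). The miR-26 family, held to restrain proliferation in liver, had 0 of 2 called and a median of -0.43. Of miR-130a and miR-301a, which share a family, 1 of 2 was called, miR-130a, and the median was 0.55. Neither miR-148b-3p and miR-152 (0 of 2) nor the miR-146 family (0 of 2) held a called member, with medians of 0.13 (-0.04 with total counts) and 0.29. The first median lies between opposite values without overlap of the animals, 0.64 for miR-152 and -0.39 for miR-148b-3p (adjusted p = 0.109 and 0.114). Of 4 measured miRNAs tied to insulin and lipid metabolism, miR-22 was called lower and miR-103, miR-107 and miR-378 were not called (median -0.15). All of these medians stand beside 0.03 over all miRNAs.

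The labelled tissue was checked against hepatocyte miRNAs. miR-122 was the most abundant miRNA in every animal of the comparison, and of 5 measured hepatocyte markers 0 were called (median 0.05, and negative with median-of-ratios factors or total counts). Their summed level was 19.11 to 19.36 at 0 h and 19.23 to 19.59 at 72 h. The endothelial marker miR-126 had a log2 fold change of 0.04 (adjusted p = 0.947).

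Of 10 markers of stellate and other mesenchymal cells, 8 were measured, of which miR-132 was called higher and miR-145 lower, beside 10.5% and 7.69% over all miRNAs. The other 6 were not called. miR-21, which is raised in activated stellate cells and in regenerating liver, had a log2 fold change of 0.74 with all 72 h animals above 0 h (adjusted p = 0.0857). miR-199a-5p had 0.53 and miR-221 0.54 (adjusted p = 0.0857 and 0.226). miR-31 had 0.31, miR-199a-3p 0.17 and miR-143 -0.25 (adjusted p = 0.316, 0.628 and 0.479). The median of the 8 was 0.42, and the summed level was 15.29 to 15.71 at 0 h and 15.63 to 16.01 at 72 h, with overlap. miR-21 makes up most of this sum. Without it, the sum of the other 7 was 14.15 to 14.42 at 0 h and 13.78 to 14.01 at 72 h. It was lower in every 72 h animal, and 14.33 to 14.49 in the animals labelled saline. miR-145, itself called lower, was the largest part of this remaining sum. Of the 8 markers, 6 had positive and 2 negative fold changes, the latter being miR-145 and miR-143.

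The study also took from published work on cultured rat stellate cells a list of miRNAs raised on activation and a list of miRNAs lowered. Of the raised miRNAs, 14 were measured, with 1 called higher (miR-132), 2 lower (miR-145 and miR-22) and a median of -0.07. Of the lowered miRNAs, 21 were measured, with 1 called higher (miR-16), 4 lower (miR-30c, miR-29a, miR-181a and miR-150) and a median of -0.02. Of the 143 miRNAs, 10.5% were called higher and 7.69% lower.

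The animals at 6 h carry the same set number as those at 72 h, and the comparison of 72 with 6 h has no difference in set. It called 53 miRNAs (37.1%), 31 higher (21.7%) and 22 lower (15.4%) at 72 h, and with scaling to the 100 highest probes 27 higher and 29 lower. Of the 26 miRNAs called against 0 h, 18 were called against 6 h too, 12 higher and 6 lower. Both comparisons use the same 72 h animals, by which the 26 were chosen, so this count is not independent support. Over all 143 miRNAs, 47.6% did not overlap between 6 and 72 h.

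miR-16 stood at 14.72, 14.22 and 14.04 at 6 h, close to its 0 h level, and its change from 6 to 72 h was 1.31 (standard error 0.23, limma adjusted p = 0.000213). miR-34a was at 8.0, 7.84 and 8.11 at 6 h, with a change of 1.11 (adjusted p = 0.000859), and miR-15b at 12.50, 12.88 and 12.91, with a change of 0.89 (adjusted p = 0.00295). For these 3 miRNAs every 72 h animal lay above every 6 h animal. miR-29a was at 15.10, 14.94 and 14.87 at 6 h and fell by 0.70 to 72 h (adjusted p = 0.00171). The 6 h means of miR-145 and miR-181a were above their 0 h means, with overlapping animals for miR-181a. That comparison of 6 with 0 h crosses the sets. From 6 to 72 h the changes of miR-145 and miR-181a were -1.54 and -1.33 (limma adjusted p = 1.09e-05 and 5.09e-05).

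The 8 miRNAs without a call against 6 h were miR-22, miR-93, miR-132, miR-27b, miR-30c, miR-451, miR-23a and miR-409-3p. miR-22 had a mean ± SD of 13.81 ± 0.17 at 6 h (n = 3), between its 0 and 72 h values, and its change from 6 h was -0.40 (adjusted p = 0.0618) with no overlap. miR-27b was at 13.67, 13.56 and 13.65 at 6 h, nearer to the 72 h than to the 0 h values, with a change of -0.14 (adjusted p = 0.499). miR-30c, miR-93, miR-451 and miR-409-3p overlapped between 6 and 72 h, with changes of -0.23, 0.51, -0.25 and 0.02. miR-409-3p was already at 8.73, 9.10 and 8.77 at 6 h, with a 72 h mean ± SD of 8.89 ± 0.13 (n = 3). With the numbered set as a random replicate block in limma, 7 of the 26 calls against 0 h were lost, those of miR-150, miR-674-3p, miR-451, miR-106b, miR-23a, miR-409-3p and miR-130a (adjusted p of 0.0707 to 0.138).

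**Figure D3:**
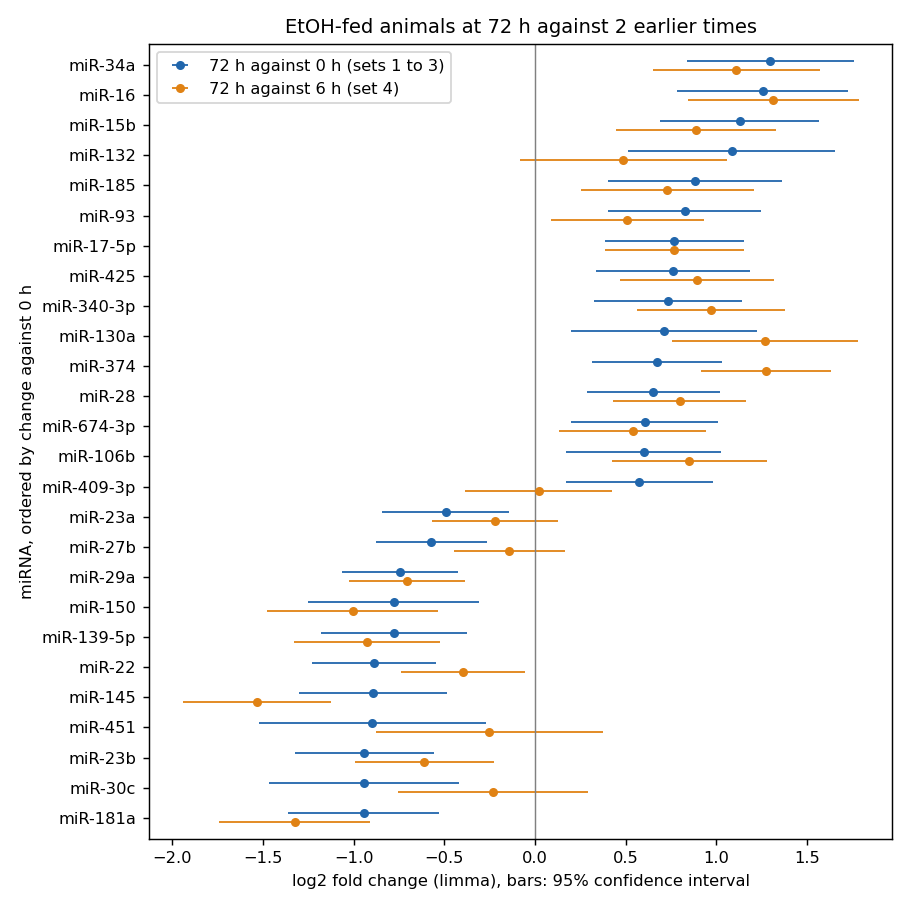
Log2 fold change of the 26 called miRNAs in EtOH-fed animals at 72 h against 0 h (blue, sets 1 to 3 at 0 h) and against 6 h (orange, set 4 at both times), with 95% confidence intervals from limma (n = 3 per group). miR-409-3p (0.02) lies nearest to 0 against 6 h, and miR-16 lies at 1.26 and 1.31. Both comparisons share the 72 h animals.

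Against the same 0 h animals, limma called 16 miRNAs at 6 h (11.2%) and 2 at 24 h (1.4%). The 3 comparisons share the 0 h animals, and their values are therefore only set side by side. The 24 h animals carry sets 1 to 3, as the 0 h animals do, while the 6 h animals carry set 4, as the 72 h animals do. With the set as a random replicate block, the counts were 0 at 6 h (32 at an unadjusted p under 0.05), 8 at 24 h and 19 at 72 h. At 24 h, miR-17-5p was already higher (0.78, adjusted p = 0.0363), at 11.43, 11.40 and 11.56. miR-34a was at 8.20, 8.70 and 8.77 at 24 h, between 0 and 72 h (0.75, adjusted p = 0.0707), and miR-16 at 15.09, 14.62 and 14.78 (0.45, adjusted p = 0.265). miR-15b differed little from 0 h at 24 h (0.18, adjusted p = 0.621), and so did miR-29a (-0.14, adjusted p = 0.602).

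The calls at 6 h cross the sets, and none of them held with the random block. miR-145 was called higher at 6 h (0.64, adjusted p = 0.0369), had a log2 fold change of -0.33 at 24 h (adjusted p = 0.364) and was called lower at 72 h. miR-374 was called lower at 6 h (-0.60, adjusted p = 0.0358) and higher at 72 h. miR-130a had -0.56 at 6 h and -0.22 at 24 h (adjusted p = 0.139 and 0.62) before its rise at 72 h. miR-451 was at 10.86, 10.24 and 10.11 at 24 h, above its 0 h mean (0.68, adjusted p = 0.218). At 24 h the summed level of both red blood cell markers was 11.68 to 12.09, and at 6 h 9.93 to 10.53.

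**Figure D4:**
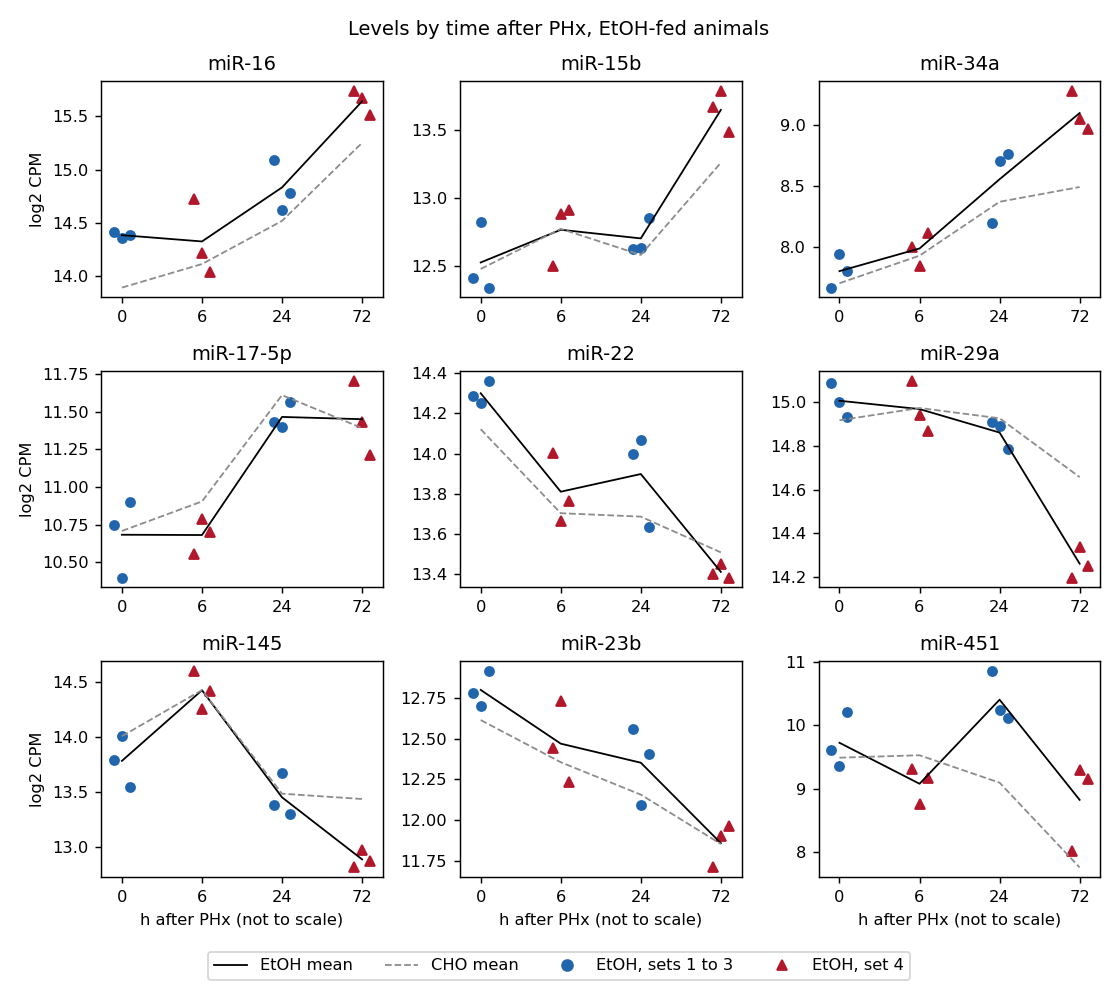
Log2 CPM of 9 miRNAs in EtOH-fed animals by time after PHx, with each animal as a point (blue circles for sets 1 to 3, red triangles for set 4), the EtOH mean as a black line and the CHO mean as a dashed grey line (n = 3 per diet and time; the time axis is not to scale). miR-16, miR-15b and miR-34a are highest at 72 h, miR-17-5p has reached its 72 h level at 24 h, and miR-145 peaks at 6 h before its low at 72 h.

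The same interval was measured in CHO-fed animals, whose 72 h animals carry set number 4 and whose 0 h animals carry sets 1 to 3 as well. There, 26 miRNAs were called (18.2%), 12 higher (8.39%) and 14 lower (9.79%), and with total counts 3 higher and 35 lower. With the deposited scaling, all 26 miRNAs called in EtOH-fed animals had the same sign in CHO-fed animals, as did 112 of all 143 (78.3%). Of the 26, 15 were called in both diets, which is 57.7% of either list. Over all miRNAs, 35.0% had CHO-fed groups that did not overlap. The count in CHO-fed animals was 13 without the 0 h animal 1, 11 without the 72 h animal 4_7 and 11 without 4_9.

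In CHO-fed animals, miR-16 went from 13.70, 13.64 and 14.34 to 15.21, 15.18 and 15.36 (1.36, adjusted p = 0.000627). miR-34a went from 7.59, 7.93 and 7.58 to 8.67, 8.29 and 8.52 (0.79, adjusted p = 0.0163). For both miRNAs the CHO-fed groups did not overlap, as in EtOH-fed animals. miR-23b, miR-22, miR-181a and miR-145 were also lower in both diets, at -0.76, -0.61, -0.86 and -0.57 in CHO-fed animals. miR-451 had -1.73 there, against -0.90 in EtOH-fed animals.

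The 11 miRNAs called in EtOH-fed and not in CHO-fed animals were miR-29a, miR-30c, miR-340-3p, miR-374, miR-28, miR-93, miR-132, miR-150, miR-106b, miR-23a and miR-409-3p. miR-29a went from 15.13, 14.90 and 14.72 to 14.71, 14.84 and 14.42 in CHO-fed animals, with overlap (-0.26, adjusted p = 0.221). miR-30c had -0.25 and miR-23a -0.04 (adjusted p = 0.482 and 0.92). miR-132 had 0.69 and miR-93 0.56 (adjusted p = 0.0716 and 0.0565), close to the threshold.

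None of these differences between the diets was shown by a test of the difference itself. The diet by time interaction in limma, the EtOH change minus the CHO change, called 0 of 143 miRNAs (0.0%), while 8 had an unadjusted p under 0.05 (5.59%), and it called 0 with voom weights, which weigh each value by its precision. The smallest adjusted p was 0.232. For miR-29a the interaction was -0.48 (95% interval -0.94 to -0.03, adjusted p = 0.639), for miR-34a 0.51 (-0.14 to 1.16, adjusted p = 0.827), and for miR-451 0.83 (-0.06 to 1.71, adjusted p = 0.639), the largest of the 26 in size. Intervals of the 26 reached 0.433 to 0.885 to either side, without adjustment over the 143 miRNAs. With 3 animals per group, an estimate smaller than the reach of its own interval could not be told from 0. Without the CHO-fed 0 h animal 2, 1 miRNA was called.

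**Figure D5:**
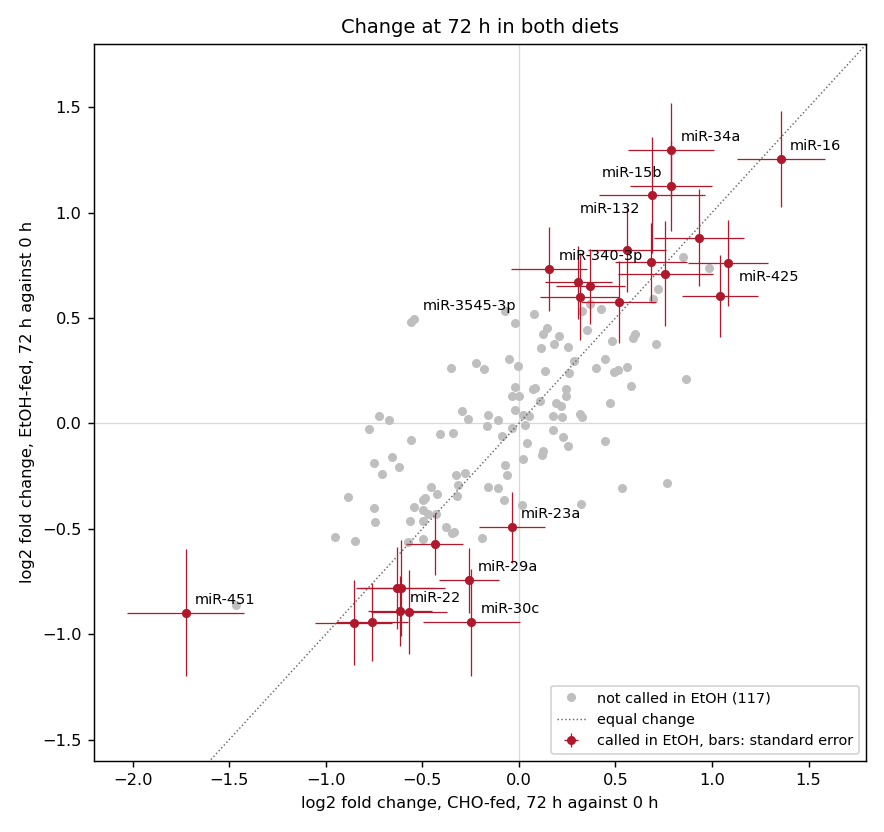
Log2 fold change at 72 h against 0 h in EtOH-fed (y axis) and CHO-fed animals (x axis), for 143 miRNAs (n = 3 per group). Red points are the 26 called in EtOH-fed animals with standard errors from limma, grey points the 117 others, and the dotted line marks equal change. With the deposited scaling all red points lie in the lower left or upper right, miR-16 near the line at 1.36 and 1.26, and miR-23a closest to 0 on the CHO axis at -0.04.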

How the data were processed

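miRNAs in total RNA of frozen whole rat liver were counted by NanoString nCounter. The authors scaled the counts by TMM and deposited log2 CPM values made with the voom function of limma 3.48.3, for 143 miRNAs in 48 animals. From these, whole counts were recovered (voom offset 0.5, tolerance 0.001, 100.0% of values whole) to give depth and other scalings. How the 143 miRNAs were selected is not given in the sources used here. Groups came from the labels.

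Linear models were fitted with limma 3.58.1 (lmFit and eBayes, R 4.3.3) to the deposited log2 CPM of 24 untreated animals in 8 groups, with Benjamini-Hochberg adjustment over 143 miRNAs and a call at 0.05. The fit was tested on simulated data. Fold changes carry the offset, which shrinks those of low counts. Alternatives were median-of-ratios factors, scaling to the 100 highest probes, total counts, a pseudocount of 5, voom weights, a filter that kept the 131 miRNAs reaching 50 counts in 3 or more animals, other samples in the fit, total count as a covariate, the numbered set as a random block, saline controls with and without the 2 libraries that go against their label, and leaving out each animal. Every called miRNA and every list member could be named. The members and lists were chosen with earlier results of these data known. Sequences and coordinates are from RefSeq (GRCr8).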

Additional observations from a re-analysis of the deposited data

Results flagged for a closer look

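The change of miR-3545-3p from 0 to 72 h ran in opposite directions in the 2 diets, by 1.04 log2 units (EtOH minus CHO). In EtOH-fed animals its log2 CPM was 7.29, 7.72 and 7.70 at 0 h and 8.22, 8.08 and 7.90 at 72 h, and the 72 h animals lay above the 0 h animals. In CHO-fed animals it was 7.94, 8.02 and 7.73 at 0 h and 7.66, 7.19 and 7.21 at 72 h, and the 72 h animals lay below. The limma interaction did not pass the threshold (adjusted p = 0.232), and neither the change in EtOH-fed animals (0.50, adjusted p = 0.122) nor that in CHO-fed animals (-0.54, adjusted p = 0.0735) was called. Counts in EtOH-fed animals were 18 to 64.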

How the results depend on the processing

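In EtOH-fed animals at 72 h against 0 h, 26 miRNAs were called, 19 to 37 under the alternatives other than omissions, except 5 with saline animal 3 as the only control, and 17 to 21 when 1 animal was left out. That lone control was assumed to vary like the other groups, and it, the untreated animals with saline animal 3 (28 called), and all animals but saline animals 1 and 2 (24 called) were chosen after seeing the data, as were the set blocks at 6 and 24 h. The lowest count was reached without animal 4_10 (17, of which 9 were higher and 8 lower). Of the 26 miRNAs, 15 lost the call under at least 1 of the 20 other alternatives, and 0 changed direction. The 0 h and 72 h animals share no set number, so no paired analysis was possible because no set holds both times. With the numbered set as a random replicate block (correlation 0.235), 19 miRNAs were called in EtOH-fed and 8 in CHO-fed animals, and 0 in the interaction, while the count at 6 h against 0 h went from 16 to 0 and that at 24 h from 2 to 8. With the set as a fixed replicate block, 24 h against 0 h gave 5. There the deviations of same-numbered EtOH-fed animals correlated by 0.20, 0.29 and -0.06 in sets 1, 2 and 3 over the miRNAs. Whether animals of a set share more than their number was not tested. The CHO count was also the least stable, at 5 when only the CHO groups compared were fitted and 11 to 34 when 1 animal was left out. The interaction called 0 to 1 miRNA when 1 animal was left out. For 72 h against 6 h the counts were 37 to 63. The causes of these movements were not tested. With 3 animals per group, the number of animals limits the precision.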
